A study of Bos taurus with 34 samples.

Results

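The transcripts of 8 leukocyte genes that act on the actin cytoskeleton, on cell migration or on membrane recycling were followed in the peripheral white blood cells (PWBC) of 17 heifers. The genes were ARAP3 (ENSBTAG00000015938), TIAM2 (ENSBTAG00000010047), CORO2A (ENSBTAG00000007659), LSP1 (ENSBTAG00000010447), GSN (ENSBTAG00000019915), PLEKHO1 (ENSBTAG00000004852), MARCKSL1 (ENSBTAG00000046862) and EHD1 (ENSBTAG00000050712), out of 27570 genes in the deposited PWBC table. They were selected on their measured CPM (counts per 1000000 counts of the library over the genes tested) in the pregnant and non-pregnant groups, so their differences between those groups are given as a description, with no test. All 8 were among the 10942 genes that reached at least 2 CPM in at least 5 libraries. TIAM2 would not have passed this filter without the non-pregnant libraries.

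The study asked whether blood drawn on the day of artificial insemination (AI) carries transcript differences between heifers of different fertility. Yearling crossbred beef heifers (Angus-Simmental) of 1 herd underwent estrous synchronization and fixed-time AI. The study sequenced a part of the heifers that conceived to AI (group AI-preg, n = 6). It also sequenced a part of those that conceived later to natural breeding with bulls (NB-preg, n = 6). Those that did not conceive formed the non-pregnant group (n = 5), after the study removed 1 of them for low sequencing yield. All groups shared the synchronization and the insemination, and each PWBC library came from a different heifer, named here by its label number. Each heifer also gave 1 plasma small RNA library, joined to its PWBC library by that number.

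Leukocytes crawl by pushing out branched actin filaments at the front and pulling in the rear. Small GTPases switch this machinery on and off, guanine nucleotide exchange factors load them with GTP, and GTPase-activating proteins return them to the inactive state. Severing, capping and bundling proteins then remodel the filaments, membrane-bound linkers tie them to the cortex, and endocytic recycling returns adhesion receptors to the surface. Neutrophils, which are among the fastest crawling blood cells, depend on all of these steps.

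Counts per PWBC library ranged from 4184999 (heifer 101, non-pregnant) to 67192941 (heifer 99, AI-preg), with group medians of 32535945 in AI-preg, 19195350 in NB-preg and 8175887 in non-pregnant heifers. A set of 3 non-pregnant libraries stood apart from the other 14. In heifers 94, 107 and 113 the neutrophil marker score, the mean log2(CPM + 1) of CXCR2, TREM1, CSF3R and S100A12, lay between 8.58 and 9.08, while the other libraries lay between 2.03 and 6.46. These were the 4 of 9 neutrophil markers that could be identified by symbol, since symbols came only from genes in the study's own result tables. Their summed level reached 76.7 to 4132 CPM in AI-preg, 220 to 2865 CPM in NB-preg and 167 to 12979 CPM in non-pregnant heifers. LCK, the T cell marker identified of 6, spanned 7.04 to 247 CPM in AI-preg, 37.1 to 216 CPM in NB-preg and 3.32 to 401 CPM in non-pregnant heifers. In heifers 94, 107 and 113 LCK was 401, 288 and 342 CPM, above every pregnant heifer. IL5RA, an eosinophil marker, was also above every pregnant heifer in these 3, at 22.4, 36.8 and 21.2 CPM. So was the platelet marker ITGA2B, whereas the NK cell marker NKG7 and the platelet marker TUBB1 were not. The 3 libraries thus stood apart on more than the neutrophil markers. None of the 4 monocyte or 4 red cell markers could be identified, so those cells were not assessed. In bulk samples of this kind, fewer cells of a type and less RNA per cell cannot be told apart. The fold changes, correlations and list counts below are therefore also given without heifers 94, 107 and 113, a choice made after seeing the data.

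ARAP3 is a phosphoinositide-regulated GTPase-activating protein. Its level in non-pregnant heifers was 158 CPM in heifer 94, 85.3 in heifer 107, 90.5 in heifer 113, 20.4 in heifer 115 and 4.32 in heifer 101. In AI-preg heifers it ran from 1.77 to 46.8 CPM with a median of 6.11, and in NB-preg heifers from 3.15 to 22.7 CPM with a median of 12.99. Heifers 94, 107 and 113 were above every pregnant heifer, and heifers 115 and 101 were inside the pregnant range.

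TIAM2 is a guanine nucleotide exchange factor for RAC1, the GTPase that drives the leading edge. Its level was 21.6, 30.8 and 16.7 CPM in non-pregnant heifers 94, 107 and 113, against 2.58 in heifer 115 and 0.959 in heifer 101. AI-preg heifers ran from 0.0402 to 8.61 CPM with a median of 0.243, on 1 to 132 reads. NB-preg heifers ran from 0.264 to 6.88 CPM with a median of 0.317, on 3 to 44 reads. The pregnant groups were low apart from heifer 114 of AI-preg and heifer 116 of NB-preg, which alone among the 12 pregnant heifers exceeded heifer 115.

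CORO2A is a member of the coronin family of WD-repeat, actin-binding proteins. It was measured at 216, 200, 207 and 116 CPM in non-pregnant heifers 94, 107, 113 and 115, and at 49.4 CPM in heifer 101. The range was 18.3 to 67.3 CPM in AI-preg (median 50.6) and 28.8 to 112 CPM in NB-preg (median 55.2). CORO2A was the only member for which 4 of the 5 non-pregnant heifers lay above all 12 pregnant heifers. The fourth of these was heifer 115, at 116 CPM beside 112 CPM in the highest pregnant heifer. How many of all genes tested share this was not computed. Its spread within groups was also the smallest of the 8, with a within-group SD of 0.74 on the log2(CPM + 1) scale, against a median of 0.95 over all genes tested.

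LSP1 is a leukocyte-specific protein that binds filamentous actin. Non-pregnant heifers 94, 107 and 113 had 12.01, 18.9 and 19.7 CPM, heifer 101 had 4.08 and heifer 115 had 1.598. AI-preg heifers spanned 0.483 to 4.56 CPM (median 2.80), and NB-preg heifers spanned 0.400 to 5.19 CPM (median 1.34). These values rested on 4 to 395 reads per library. LSP1 was the 1 member that did not reach a minimum of 5 CPM in 5 libraries.

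GSN encodes gelsolin, which severs and caps actin filaments when calcium rises. Its level was 61.9, 32.3 and 50.7 CPM in heifers 94, 107 and 113, but 5.04 in heifer 101 and 4.79 in heifer 115. AI-preg heifers ranged from 0.563 to 18.9 CPM with a median of 7.57. NB-preg heifers ranged from 2.26 to 21.3 CPM with a median of 12.8. The last 2 non-pregnant heifers were thus below the medians of both pregnant groups.

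PLEKHO1 is a pleckstrin homology domain protein that sits at the plasma membrane and binds actin capping protein. Heifers 94, 107 and 113 had 93.8, 124 and 186 CPM, while heifers 101 and 115 had 24.5 and 8.73. Its range was 5.59 to 35.8 CPM in AI-preg, with a median of 20.4, and 3.20 to 26.6 CPM in NB-preg, with a median of 21.1. The gap between the 3 high libraries and the highest pregnant heifer was wider than 2-fold, and the other non-pregnant heifers lay on either side of the pregnant medians.

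MARCKSL1 is a protein kinase C substrate that links actin to the inner face of the membrane. It stood at 49.8, 98.0 and 74.1 CPM in heifers 94, 107 and 113 and at 5.99 and 7.86 CPM in heifers 101 and 115. AI-preg heifers spanned 0.885 to 35.6 CPM (median 7.80) and NB-preg heifers 2.78 to 12.7 CPM (median 8.78). Heifer 114 of AI-preg came closest to the 3 high libraries.

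EHD1 is an ATPase that shapes the membrane tubules through which internalized receptors return to the surface. Its level was 201, 152 and 223 CPM in heifers 94, 107 and 113, against 18.5 in heifer 101 and 15.6 in heifer 115. The AI-preg range was 6.43 to 78.4 CPM, with a median of 22.7, and the NB-preg range was 13.8 to 85.9 CPM, with a median of 22.1. Heifers 101 and 115 were below both pregnant medians, as they were for GSN.

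**Figure D1:**
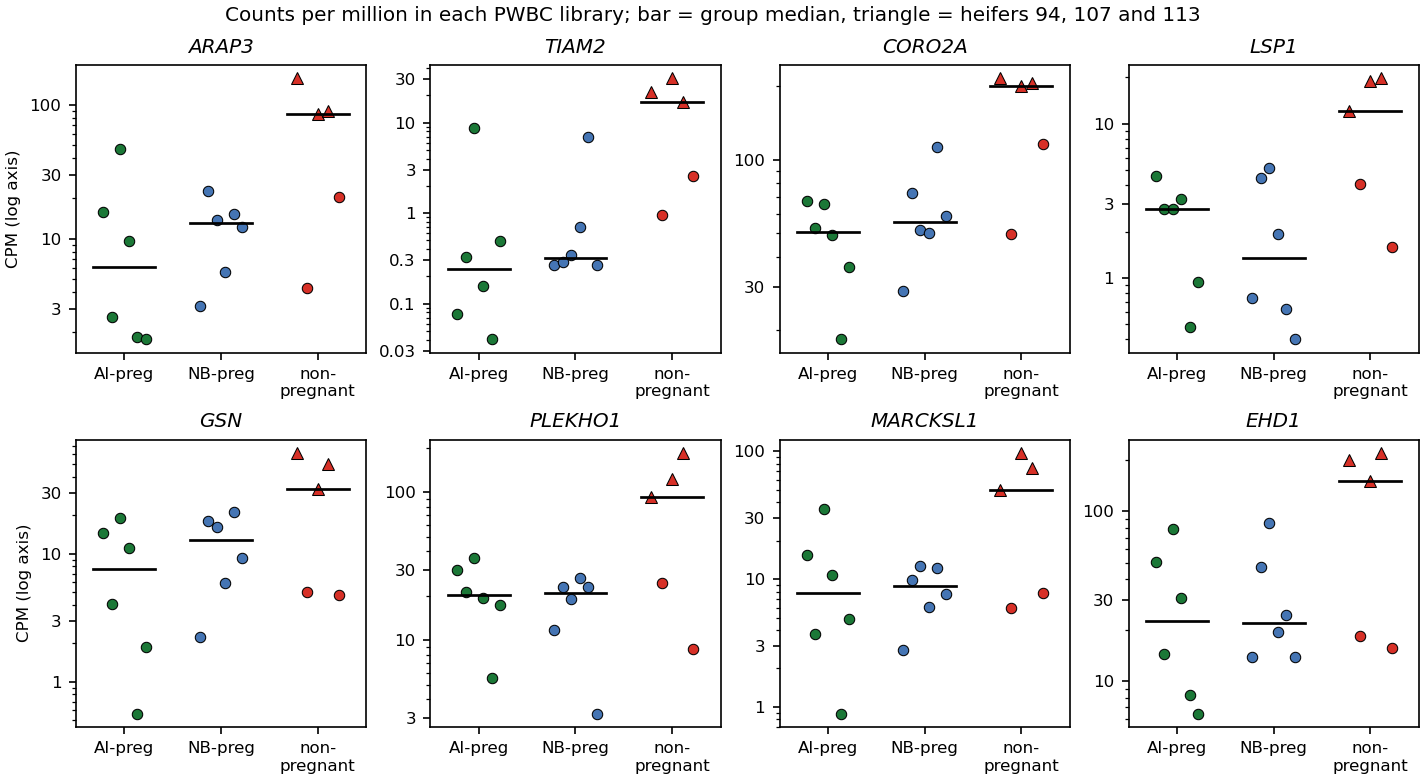
CPM of the 8 genes in each PWBC library on log axes, by group; each point is 1 heifer, the bar is the group median and triangles are heifers 94, 107 and 113. The triangles are the 3 highest points in all 8 panels, and the other 2 non-pregnant heifers lie among the pregnant ones except for CORO2A in heifer 115.

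The same 3 heifers thus held the 3 highest levels of all 8 genes. This was the case for 731 of the 10942 genes tested, a background of 6.68%, and since the members were selected on these levels nothing further is read from the count. At the low end, AI-preg heifer 119 and NB-preg heifer 93 were each among the 5 lowest libraries for all 8 genes. In both heifers the neutrophil marker score was low as well, at 2.03 and 3.46. The non-pregnant and pregnant groups overlapped for each of the 8 genes. The share of all genes tested with such an overlap was not computed, so nothing is read from this count.

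Fold changes from the edgeR fit over all genes followed these levels. The log2 fold change of non-pregnant over AI-preg heifers was 2.46 ± 0.88 (SE; n = 5 and 6) for ARAP3, 3.19 ± 1.34 for TIAM2, 1.71 ± 0.44 for CORO2A and 2.19 ± 0.83 for LSP1. It was 1.86 ± 0.83 for GSN, 2.02 ± 0.66 for PLEKHO1, 1.99 ± 0.80 for MARCKSL1 and 1.95 ± 0.76 for EHD1. The median over the 8 genes was 2.01, beside a median of -0.15 over all genes tested. Non-pregnant over NB-preg values share the non-pregnant libraries with the first comparison. They were 2.57 ± 0.89 for ARAP3, 3.38 ± 1.36 for TIAM2, 1.34 ± 0.43 for CORO2A and 2.34 ± 0.84 for LSP1. The remaining 4 were 1.35 ± 0.83 for GSN, 2.30 ± 0.66 for PLEKHO1, 2.47 ± 0.81 for MARCKSL1 and 1.84 ± 0.76 for EHD1, with a median of 2.32 over the 8 beside -0.05 over all genes. All 16 values were above 0.

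No gene in either comparison passed the edgeR quasi-likelihood test at a Benjamini-Hochberg adjusted p of 0.05 or less, so the share called was 0% and no member was among the calls. Unadjusted p-values were below 0.05 for 585 genes (5.35%) against AI-preg and for 672 genes (6.14%) against NB-preg. DESeq2 called 5 genes (0.0457%) and 11 genes (0.101%), none of them a member. The study's own rule, an unadjusted p of 0.03 or less in both edgeR's likelihood ratio test and DESeq2 that also holds with each heifer of the contrast left out, was met by 59 genes that were higher in non-pregnant than in AI-preg heifers (0.539%). ARAP3, CORO2A, LSP1 and PLEKHO1 were 4 of these. It was met by 67 genes higher in non-pregnant than in NB-preg heifers (0.612%), among them the same 4 genes plus TIAM2 and MARCKSL1. The members were chosen in view of these contrasts, so the counts restate the choice.

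The 8 differences depended on heifers 94, 107 and 113. The members were selected on these levels and the 3 heifers were the highest for all 8. A fall on leaving them out follows from that and is given as a description. Without them, with 2 non-pregnant heifers left, the log2 fold change over AI-preg ranged from -0.89 (EHD1) to 0.78 (CORO2A) and was above 0 for 3 of the 8 genes. Over NB-preg it ranged from -1.31 (GSN) to 0.40 (CORO2A) and was above 0 for 4 of the 8. CORO2A, TIAM2 and LSP1 kept a positive value in both comparisons, the values of TIAM2 being 0.17 and 0.35 and those of LSP1 0.19 and 0.34. GSN, PLEKHO1, MARCKSL1 and EHD1 had negative values in both. With all 17 heifers and the neutrophil marker score as a covariate, the values over AI-preg lay between -0.62 (GSN) and 0.84 (TIAM2), and those over NB-preg between -1.08 (GSN) and 1.00 (TIAM2). This fit is not separate from leaving the 3 heifers out. The score was 8.58 to 9.08 in those 3 and at most 6.46 in the others, so it sets the same heifers apart. Its markers were also named only from the study's results on these heifers. The covariate values are therefore given as a description too.

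**Figure D2:**
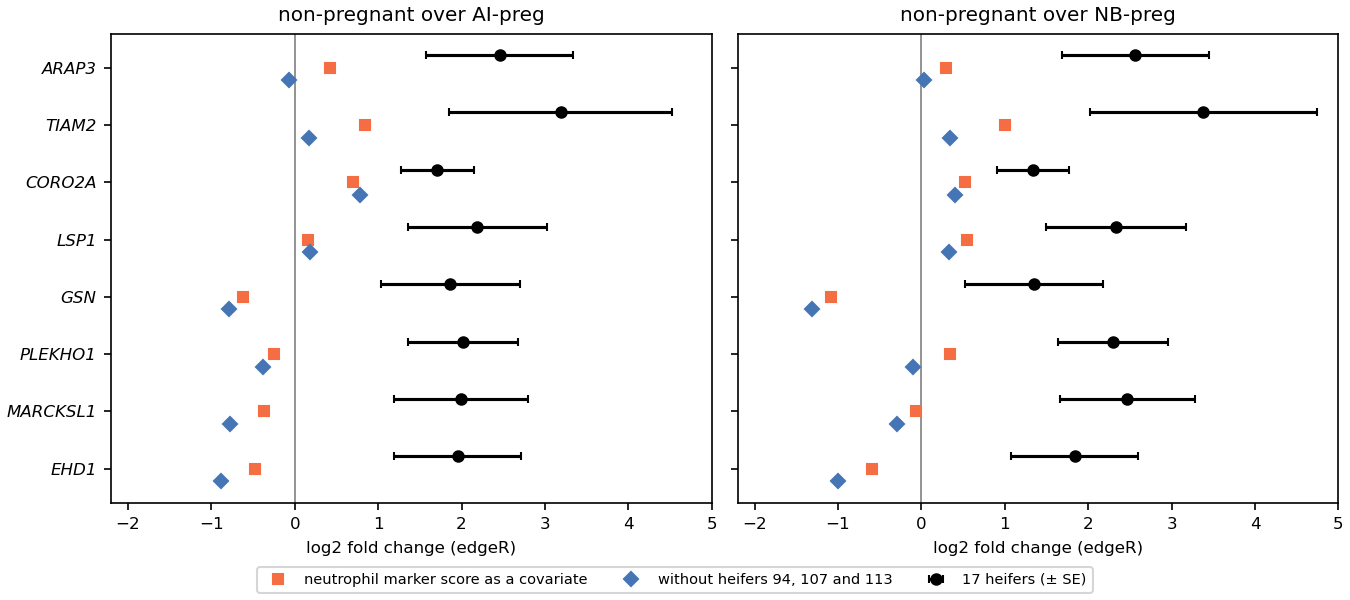
Log2 fold change of each gene for non-pregnant over AI-preg (left) and over NB-preg (right) heifers, from all 17 heifers with its SE (circles), with the neutrophil marker score as a covariate (squares), and without heifers 94, 107 and 113 (diamonds). All circles lie between 1.34 and 3.38, whereas squares and diamonds lie between -1.31 and 1.00 on both sides of 0.

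TIAM2 depended on single heifers of the pregnant groups as well. Without heifer 114 its log2 fold change of non-pregnant over AI-preg was 6.00 in place of 3.19, and without heifer 116 that over NB-preg was 5.25 in place of 3.38. For ARAP3 the value over AI-preg was 3.50 without heifer 114. Over all members and all heifers left out in turn, the lowest value over AI-preg was 1.45 (GSN without heifer 94), and the lowest over NB-preg was 0.93 (GSN without heifer 94).

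The pregnant groups were also compared with each other. The study did not list the members for this contrast, although the selection looked at the levels of all groups and TIAM2 and MARCKSL1 had been listed against NB-preg alone, so it is not fully independent. None of the 8 genes was called (edgeR quasi-likelihood adjusted p = 0.9996 for each), nor was any of the 10942 genes (0%), of which 16 had an unadjusted p below 0.05 (0.146%). DESeq2 called 0% too, and the study's rule was met by 2 genes (0.0183%), neither of them a member. GSN had the largest log2 fold change of NB-preg over AI-preg, 0.52 with a 95% interval of -1.13 to 2.16. CORO2A had the narrowest interval, -0.49 to 1.24 around 0.37. For TIAM2 the interval ran from -2.76 to 2.38 around -0.19, and leaving out heifer 116 or heifer 114 moved the value to -2.05 or 2.63. Those 2 were the only pregnant heifers in which TIAM2 reached 2 CPM. It passed the filter on low counts through the non-pregnant group, where it was high. Its comparison here is therefore given as a description.

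The other intervals were similarly wide. They were -1.82 to 1.596 for ARAP3, -1.78 to 1.48 for LSP1, -1.56 to 1.01 for PLEKHO1, -2.05 to 1.09 for MARCKSL1 and -1.38 to 1.61 for EHD1. A 2-fold difference in either direction between AI-preg and NB-preg heifers lay inside the interval of 7 of the 8 genes, and for CORO2A a 2-fold lower level in NB-preg lay outside it.

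The members were also related to one another across heifers of the same group. Group means were taken off and the 28 pairs of members correlated on the log2(CPM + 1) scale, with permutations inside groups. Because the non-pregnant group split into 3 high and 2 low libraries, and the genes had been selected on levels that hold this split, the relation was first read without the 3. Over these 14 heifers 27 of the 28 pairs had r above 0, with a median of 0.58, where the median over all pairs of the 10942 genes was 0.15 and 58.8% of those pairs were above 0. The members' median was reached by 22.1% of all gene pairs. By Pearson's r 11 member pairs had an adjusted p of 0.05 or less, and 11 had by Spearman's coefficient. The share of all gene pairs called in this way was not computed, so the counts are not read as particular to the members. The closest pair was GSN and MARCKSL1 (r = 0.93, Spearman coefficient 0.95, adjusted p = 0.00075 and 0.0045), followed by ARAP3 and MARCKSL1 (r = 0.89, adjusted p = 0.00075) and ARAP3 and GSN (r = 0.87, adjusted p = 0.0019). LSP1 was nearest to EHD1 (r = 0.80, adjusted p = 0.0053) and PLEKHO1 to LSP1 (r = 0.70, adjusted p = 0.023), although by Spearman's coefficient that pair was not called (0.57, adjusted p = 0.095). TIAM2 had no pair with an adjusted p of 0.05 or less by either coefficient in these 14 heifers, and its r with LSP1 was -0.15 (adjusted p = 0.58). Its level reached 2 CPM in only heifers 114, 115 and 116 of these 14, so its values here rest mostly on low counts.

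With all 17 heifers the 28 values ran from 0.37 (TIAM2 and LSP1) to 0.93 (GSN and MARCKSL1) with a median of 0.76. These values hold the split of the non-pregnant group in which the members were seen to be high, so they are not separate from the selection and are given as a description, as are the 17-heifer correlations with cell markers and miRNA below. The median r over all gene pairs was 0.12, and 33.8% of those pairs reached the lowest member pair and 8.21% the members' median. Leaving out the 2 heifers farthest from the median of the first gene gave r from 0.42 to 0.94. Within AI-preg heifers alone (n = 6) r ran from 0.16 to 0.98 with a median of 0.82, and within NB-preg heifers (n = 6) from -0.36 to 0.98 with a median of 0.44. The pair GSN and MARCKSL1 was close in both, at r = 0.95 (exact permutation p = 0.0069) and r = 0.98 (exact permutation p = 0.0056). PLEKHO1 and CORO2A were close in AI-preg heifers (r = 0.98, exact permutation p = 0.0028) and had r = 0.25 in NB-preg heifers (exact permutation p = 0.55). The difference between the groups was not tested. These exact p-values are not adjusted for the 28 pairs. The pairs named are those with the highest r in NB-preg (GSN and MARCKSL1) and in AI-preg (PLEKHO1 and CORO2A), so their p-values are those of extremes.

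**Figure D3:**
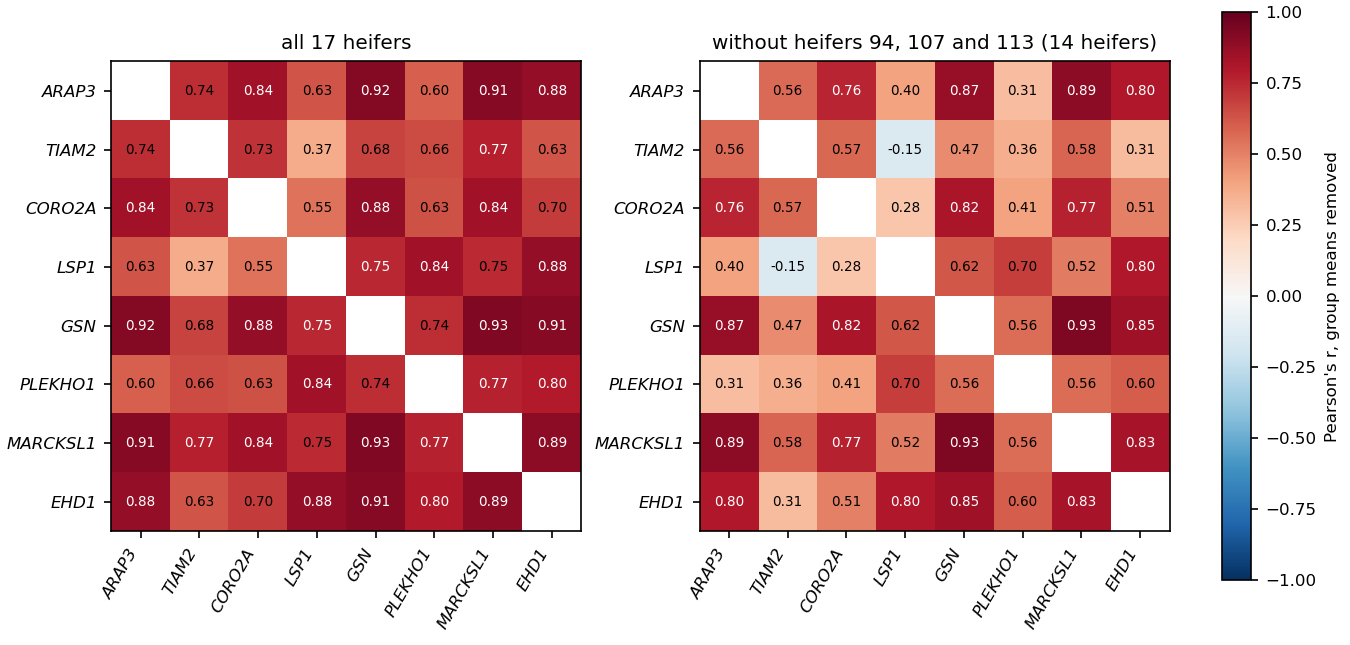
Pearson's r of log2(CPM + 1) after removal of group means for the 28 pairs of genes, over all 17 heifers (left) and over 14 heifers without 94, 107 and 113 (right); colour and number both give r. ARAP3, GSN, MARCKSL1 and EHD1 stay at 0.80 or above with each other on the right, while the TIAM2 row falls to between -0.15 and 0.58.

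Markers of leukocyte types moved with the genes inside groups. The within-group r with the neutrophil marker score was 0.94 for MARCKSL1 and GSN, 0.87 for PLEKHO1, EHD1 and ARAP3, 0.85 for CORO2A, 0.80 for TIAM2 and 0.76 for LSP1. Spearman's coefficient ran from 0.71 to 0.92. Without heifers 94, 107 and 113 the 8 values ran from 0.53 to 0.91, and 5 of them had an adjusted p of 0.05 or less over 48 gene and score pairs by Pearson's r and 5 by Spearman's coefficient (permutation). With the T cell marker LCK, r ran from 0.47 (TIAM2) to 0.93 (LSP1) over 17 heifers. Without the 3 heifers it ran from -0.0068 to 0.89, and 5 of 8 were called by Pearson's r but 2 of 8 by Spearman's coefficient.

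For IL5RA, an eosinophil marker, r ran from 0.40 to 0.69, and for NKG7, an NK cell marker, from 0.39 to 0.74. Without the 3 heifers the ranges were 0.14 to 0.64 and -0.18 to 0.52, and Pearson's r called 0 of 8 for both markers, Spearman's coefficient 1 of 8 for IL5RA and 0 of 8 for NKG7. For the mean of the platelet markers ITGA2B and TUBB1 r ran from -0.57 (TIAM2) to 0.28 (LSP1). Without the 3 heifers it ran from -0.55 to 0.69 with 0 of 8 called by either coefficient. These 2 markers had unlike profiles. In heifers 94, 107 and 113 ITGA2B was highest, at 41.4, 49.4 and 64.3 CPM, and TUBB1 was 0.0646, 0.491 and 85.0 CPM. TUBB1 reached 1860 CPM in a pregnant heifer. The r of each platelet marker alone was not computed, so this range describes neither. The share of all genes tested that would be called against these scores was not computed. The counts called are therefore not read as particular to the members. The score lists hold 1 to 4 genes each, and the part of any 1 cell type in the gene levels was not tested.

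**Figure D4:**
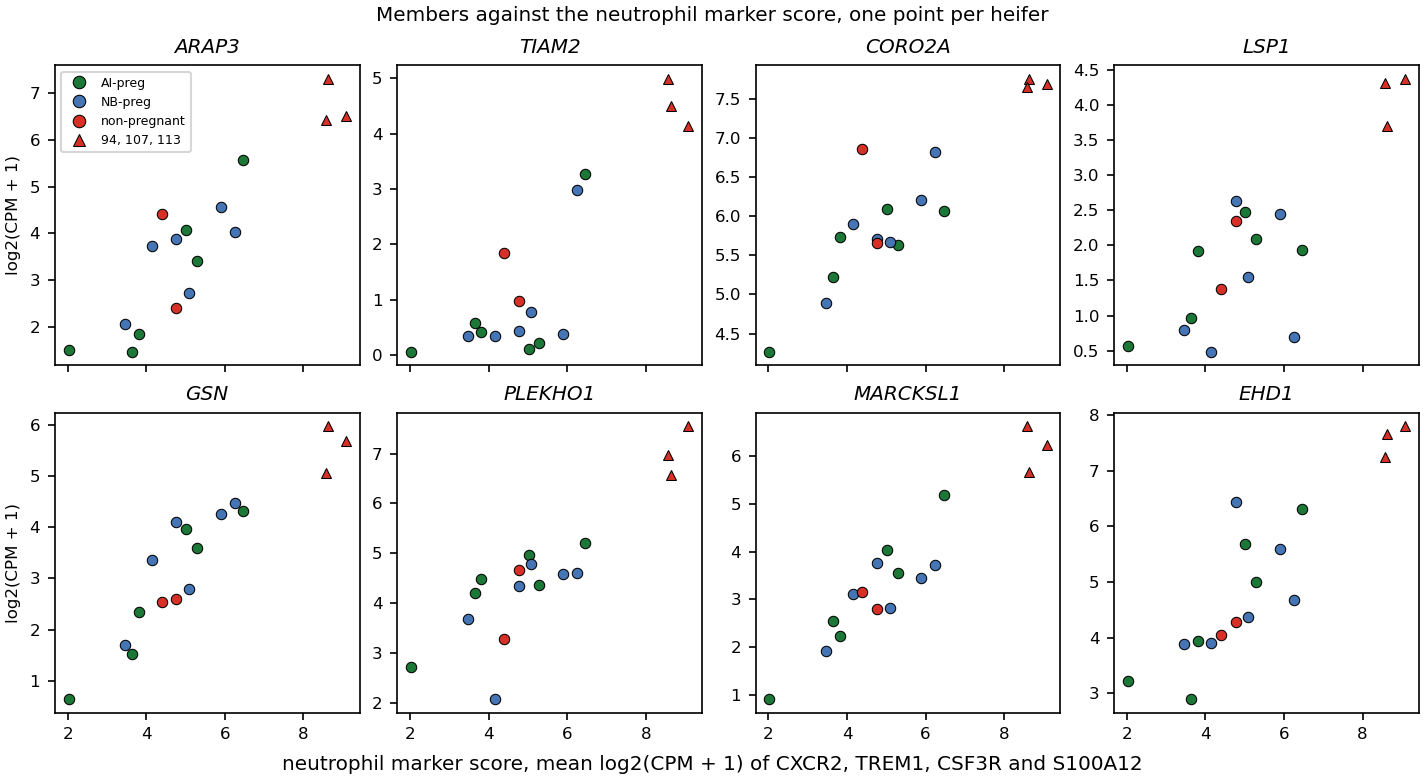
Log2(CPM + 1) of each gene against the neutrophil marker score, 1 point per heifer, coloured by group, with heifers 94, 107 and 113 as triangles. The triangles lie at scores of 8.58 to 9.08 and at the top of every panel, and the 14 other heifers lie at scores of 2.03 to 6.46.

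For each member the 2 genes with the most similar profile were sought among the 2224 tested genes that could be named, by Pearson's r of log2(CPM + 1) over the 17 libraries, as a description. These names came only from genes in the study's own result tables, which were made with these heifers. The named genes are thus not a random sample of the genes tested, and a gene without a name could be nearer. Without heifers 94, 107 and 113 the 16 values of r below ran from 0.82 to 0.96. CSF3R, the receptor for granulocyte colony-stimulating factor, was nearest to ARAP3 (r = 0.96), MARCKSL1 (r = 0.96) and CORO2A (r = 0.93). NFE2, a transcription factor of blood cell lineages, came second for ARAP3 (r = 0.94), MARCKSL1 (r = 0.95) and EHD1 (r = 0.97). CSF3R was measured at 1101, 636 and 1241 CPM in heifers 94, 107 and 113, at 12.5 and 42.3 CPM in heifers 101 and 115, and at 0.402 to 123 CPM in the pregnant groups.

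EHD1 was nearest to PSMG4, a proteasome assembly chaperone (r = 0.97), and CORO2A had the kinase-like gene STK40 second (r = 0.92). GSN was nearest to MYD88, the adaptor of Toll-like receptors (r = 0.96), and to SPI1, a myeloid and B cell transcription factor (r = 0.95). PLEKHO1 was nearest to NCF1, a subunit of the phagocyte NADPH oxidase (r = 0.96), and to PLBD2 (r = 0.96). LSP1 was nearest to G6PC3, a glucose-6-phosphatase (r = 0.97), and to CAPG, a capping protein of the gelsolin family (r = 0.97).

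TIAM2 was nearest to IFIT3 (r = 0.97), an interferon-induced gene, and to MCF2L2 (r = 0.96), a guanine nucleotide exchange factor. IFIT3 was 518 CPM in heifer 114 and 501 CPM in heifer 116, against 13.7 to 62.2 CPM in the other 10 pregnant heifers. These are the heifers in which TIAM2 was high within the pregnant groups. Among non-pregnant heifers IFIT3 was 872, 1655 and 955 CPM in heifers 94, 107 and 113, 182 CPM in heifer 115 and 37.6 CPM in heifer 101, an order that TIAM2 shared except between heifers 94 and 113.

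**Figure D5:**
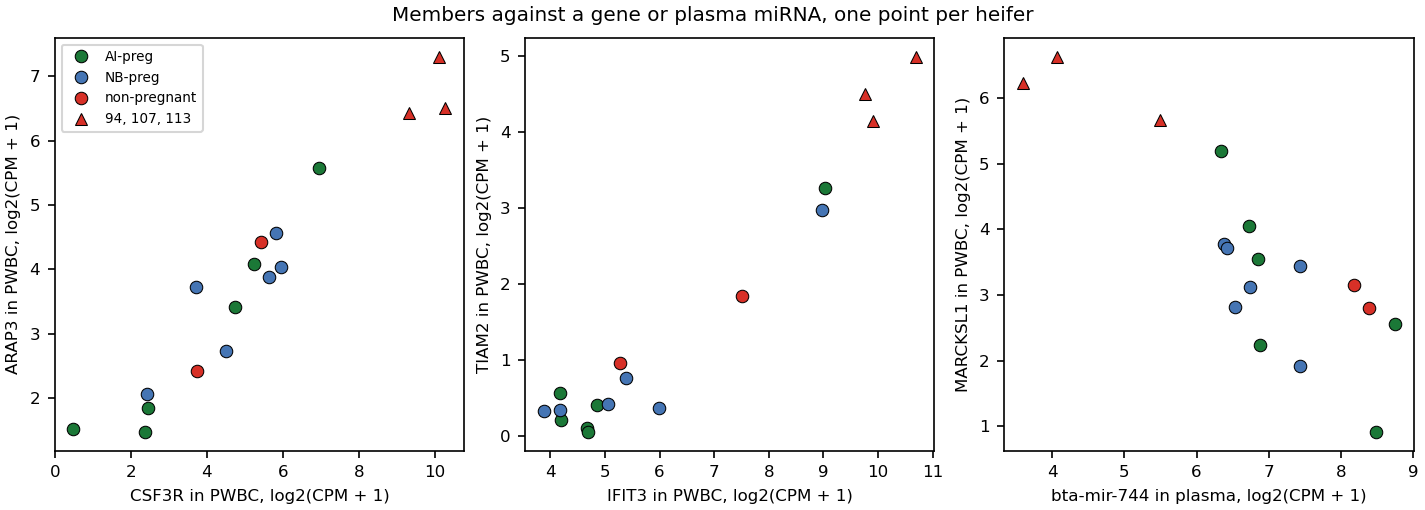
Log2(CPM + 1) of ARAP3 against CSF3R, of TIAM2 against IFIT3 and of MARCKSL1 against plasma bta-mir-744, 1 point per heifer, coloured by group, with heifers 94, 107 and 113 as triangles. ARAP3 rises with CSF3R over the whole range, TIAM2 is low in all heifers with low IFIT3 and high in heifers 114 and 116, and MARCKSL1 is highest in the 3 heifers that are lowest for bta-mir-744.

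Close relatives of the members were read next. The list of relatives held 20 genes, of which 5 could be identified in the table. CORO1A, the coronin most abundant in leukocytes, had a log2 fold change of 1.51 ± 0.85 (SE) for non-pregnant over AI-preg and 1.69 ± 0.86 over NB-preg. CAPG had 2.68 ± 1.24 and 2.29 ± 1.23. SCIN, or adseverin, a further actin-severing protein of the gelsolin family, went the other way, with -1.66 ± 0.74 and -0.93 ± 0.72. It was measured at 0.0646, 2.94 and 2.29 CPM in heifers 94, 107 and 113, below the lowest pregnant value of 5.45 CPM, and at 5.99 and 8.85 CPM in heifers 101 and 115. Thus GSN and SCIN, of the same family, were at opposite ends of their ranges in the 3 heifers.

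MARCKS, the relative of MARCKSL1, had 1.999 ± 1.13 and 1.19 ± 1.11, with a different profile over heifers. Its highest level was 2867 CPM in non-pregnant heifer 115, where MARCKSL1 was 7.86 CPM, and heifers 116 and 114 had 1725 and 1029 CPM. ARAP2, the relative of ARAP3, had -0.95 ± 0.69 and -0.48 ± 0.69. None of the 5 passed the edgeR quasi-likelihood test (adjusted p from 0.780 to 0.886), DESeq2 called none, and CAPG and SCIN had an unadjusted p below 0.05 against AI-preg (0.043 and 0.037). Without heifers 94, 107 and 113 the values of CAPG were -0.75 and -1.14, those of CORO1A were 0.07 and 0.25, and those of SCIN were -0.76 and -0.04. Those of MARCKS were 2.76 and 1.95, and those of ARAP2 were -0.23 and 0.24.

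Wider pathway lists were counted in the same fit. Symbols came only from genes that appear in the study's own result tables, so the identified genes are not a random sample of each list. Of 33 genes of the small GTPase cycle 12 were identified, of 39 actin filament genes 9, of 30 adhesion and chemoattractant genes 9, and of 13 endocytic recycling genes 0. None was called by the edgeR quasi-likelihood test or by DESeq2 in either comparison. At an unadjusted p below 0.05, CYTH4 and RHOG of the GTPase list were higher in non-pregnant heifers in both comparisons. ARPC1B of the actin list was higher in both and FMNL1 over NB-preg. JAML and PTAFR of the adhesion list were higher in both, and C5AR1, CXCR2 and GNAI2 over AI-preg. No gene of these 3 lists was lower at that level.

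Most genes of these lists lay above 0 without passing a test. Values over AI-preg were positive for 11 of 12 GTPase genes (median 0.86), 9 of 9 actin genes (median 1.06) and 8 of 9 adhesion genes (median 1.56), where 42.2% of all genes tested were positive. Over NB-preg they were positive for 11 of 12 (median 0.95), 9 of 9 (median 1.34) and 8 of 9 (median 1.40), where 47.3% of all genes were positive. Only genes named in the study's result tables, made with these heifers, could enter the lists. The share positive among such named genes was not computed. The shares over all genes are thus not a like background, here or below, and the counts are given as a description. The gene with the smallest p in each list was RHOG, a GTPase that acts upstream of RAC1 (2.67 ± 1.01 over AI-preg and 3.13 ± 1.03 over NB-preg), ARPC1B, an Arp2/3 complex subunit (2.04 ± 0.74 and 2.23 ± 0.75), and JAML, a junctional adhesion molecule of neutrophils and monocytes (2.14 ± 0.68 and 2.08 ± 0.68). Their adjusted p was 0.780 in the first comparison and 0.778 in the second (edgeR quasi-likelihood test). Without heifers 94, 107 and 113 the values over AI-preg were positive for 2 of 12, 5 of 9 and 5 of 9 genes of the 3 lists, and those over NB-preg for 3 of 12, 6 of 9 and 3 of 9, beside 41.7% and 47.9% of all genes. In the same fit ARPC1B had 1.29 and 1.48, RHOG -0.49 and -0.03, and JAML -0.13 and -0.18.

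Plasma miRNA that the study had paired with the members in the same heifers was related to them inside groups. Since the pairs were listed from these samples, p-values here are not independent evidence. bta-mir-744 (ENSBTAG00000030109) was measured in plasma at 44.0, 15.8 and 11.1 CPM in heifers 94, 107 and 113 and at 332 and 289 CPM in heifers 101 and 115. AI-preg heifers had 79.9 to 428 CPM and NB-preg heifers 82.4 to 172 CPM. The 3 heifers highest for the 8 genes were thus the lowest for this miRNA.

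Without those 3 heifers r of bta-mir-744 with the 8 genes ran from -0.76 to -0.44, and by Pearson's r 0 of the 10 miRNA and gene pairs had an adjusted p of 0.05 or less (permutation, lowest adjusted p = 0.054). By Spearman's coefficient 5 of the 10 had (permutation, adjusted p = 0.029 for each), those of CORO2A, GSN, MARCKSL1 and EHD1 with bta-mir-744 and that of PLEKHO1 with bta-mir-2431. Over all 17 heifers r ran from -0.85 (MARCKSL1, adjusted p = 0.0034) to -0.71 (TIAM2, adjusted p = 0.013). Spearman's coefficient was -0.87 for MARCKSL1 (adjusted p = 0.0012) and -0.59 for TIAM2 (adjusted p = 0.053). Within AI-preg heifers r ran from -0.90 to -0.44, and within NB-preg heifers from -0.58 to 0.02. PLEKHO1 had r = -0.81 with bta-mir-2431 (ENSBTAG00000045218; adjusted p = 0.0034) and -0.62 without the 3 heifers (adjusted p = 0.054), with a Spearman coefficient of -0.64 (adjusted p = 0.029). LSP1 had r = -0.75 with bta-mir-181d (ENSBTAG00000029969; adjusted p = 0.0051) and -0.52 without them (adjusted p = 0.11), with a Spearman coefficient of -0.48 (adjusted p = 0.14).

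Fragments of the members' own transcripts were also looked for in the plasma small RNA table, where the counting was not aimed at mRNA. GSN had 1 to 57 reads and was counted in all 17 plasma libraries, at 0.55 to 4.39 CPM (over all counts of the plasma library) in AI-preg, 1.19 to 7.11 in NB-preg and 0.912 to 4.91 in non-pregnant heifers. The 3 ranges overlapped. LSP1 and EHD1 were each counted in 12 of 17 libraries with at most 17 and 12 reads, CORO2A in 11 and PLEKHO1 in 10 with at most 7 reads each. ARAP3 was counted in 5 libraries, MARCKSL1 in 2 and TIAM2 in 1, with at most 6, 3 and 1 reads. Heifers 94, 107 and 113 did not stand out for GSN in plasma, with 28, 57 and 7 reads at 3.09, 3.35 and 0.912 CPM.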

How the data were processed

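The authors deposited raw read counts per gene for 17 PWBC and 17 plasma libraries. Per the labels and the study's methods, PWBC came from the buffy coat after red cell lysis, and reads were aligned with HISAT2 to ARS-UCD1.2 and counted with featureCounts after removal of duplicates and multi-aligned reads. The submitters' processing notes name HISAT2 2.1.0 and featureCounts 1.6.0, and the study's code names another release of featureCounts. Paralogs were therefore counted on uniquely aligned reads. Genes at 2 CPM or more in 5 or more PWBC libraries were fitted with edgeR 4.0.16 (quasi-likelihood, 3 groups in 1 fit, library size as the sum over the genes kept), with Benjamini-Hochberg adjustment over 10942 genes. The SE of a log2 fold change was its absolute value divided by the square root of the quasi-likelihood F statistic. It is thus not separate from that test, and the intervals used the same SE. DESeq2 1.42.0, other scalings, filters, a neutrophil score covariate and each heifer left out were alternatives. Correlations used log2(CPM + 1) with group means removed and 100000 permutations inside groups, and exact permutation within groups of 6; all tests were two-sided. Plasma CPM was taken over 1086 genes above 1 CPM in 5 or more libraries, except for the members' own plasma CPM, taken over all counts. Both kinds of test were tested on simulated data. Gene symbols came from the study's supplementary tables, which paired 2224 of the tested identifiers with a symbol. Named genes outside the members were the 2 most alike by r, all identified relatives and, per pathway list and comparison, any gene called or else the one with the smallest p. Genes of those lists named beyond this were chosen after their values were seen. Members, lists and marker genes were chosen with earlier results of these data known. CPM is not scaled by transcript length, so levels were not compared between genes. 1 of the marker lists is not reported here.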

Additional observations from a re-analysis of the deposited data

Results flagged for a closer look

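TIAM2 had 1 library far from the others in both pregnant groups. In AI-preg, heifer 114 had 8.61 CPM against 0.486 CPM in the next highest heifer, and in NB-preg, heifer 116 had 6.88 CPM against 0.703 CPM. The gap was 0.84 of the group's range on the log2(CPM + 1) scale in both cases, above the critical value of 0.625 for 6 samples. Of 24 gene and group sets examined 2 were far enough apart to be listed, where chance alone lists about 1 in 20.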

How the results depend on the processing

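No paired analysis was possible because no heifer number is shared between the groups compared. The count of genes called was 0 in all 3 comparisons under every alternative except DESeq2 (5 against AI-preg, 11 against NB-preg) and the study's rule (71, 88 and 2 genes in either direction, the last between the pregnant groups). DESeq2 size factors moved the median log2 fold change of all genes for non-pregnant over AI-preg from -0.15 to 0.16, and all 8 members stayed above 0. With the neutrophil marker score as a covariate the fold changes of GSN, PLEKHO1, MARCKSL1 and EHD1 over AI-preg turned to -0.62, -0.24, -0.37 and -0.47, and those of GSN, MARCKSL1 and EHD1 over NB-preg to -1.08, -0.068 and -0.59. Without heifers 94, 107 and 113 the values of ARAP3, GSN, PLEKHO1, MARCKSL1 and EHD1 over AI-preg turned to -0.074, -0.79, -0.38, -0.77 and -0.89, and those of GSN, PLEKHO1, MARCKSL1 and EHD1 over NB-preg to -1.31, -0.11, -0.30 and -1.003. The cause was not tested. For NB-preg over AI-preg ARAP3 was 0.13 with the covariate, and with 1 heifer left out the values ran from -0.39 to 0.93 for ARAP3, -2.05 to 2.63 for TIAM2, -0.60 to 0.12 for LSP1, -0.72 to 0.25 for MARCKSL1 and -0.41 to 0.62 for EHD1. Without heifers 94, 107 and 113 the pairs called by Pearson's r fell from 27 to 11 of 28 among members, from 32 to 12 of 48 with cell type scores and from 10 to 0 of 10 with miRNAs, and those called by Spearman's coefficient from 27 to 11, 31 to 10 and 9 to 5. LSP1 has no value at a minimum of 5 CPM. With 4 reads in its lowest library LSP1, like TIAM2 with 1 read, rests on few reads. The 1 read of TIAM2 was in heifer 119, whose library of 24892225 counts was above the median of 20164587.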
